A study of Mus musculus with 6 samples.

Results

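The immediate-early genes Fos, Fosb, Jun, Junb, Jund, Egr1, Egr2, Ier2, Dusp1 and Zfp36 were described in cultured mouse microglia with and without deletion of Nr1d1, the gene of the nuclear receptor REV-ERBα. The members were chosen by symbol as a textbook set, with earlier results of these data known. All 10 were found among the 55487 Ensembl genes of the count files. Counts above 1 CPM (a gene's counts scaled to its library total) in at least 4 of the 6 libraries were required for a test, which 8 members met. Egr1 and Fosb lay below this filter, and since a group held 3 libraries, no gene could pass through 1 group alone.

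Bulk RNA-seq was performed on primary microglia from the cortex of CAG::CreERT2; Nr1d1fl/fl pups aged P1 to P3. The 3 cultures of the Cre- group lacked the recombinase and the 3 of the Cre+ group carried it, while floxed Nr1d1 alleles and 1.5 μM 4-hydroxytamoxifen (4-OHT) for 2 days were shared by both groups, as the labels state. The methods of the study give a shorter exposure for cultures of this line. CreERT2 is a Cre recombinase fused to a mutated estrogen receptor domain that carries it into the nucleus when 4-OHT is bound, and the CAG promoter drives it in nearly every cell type, so any other cell in a culture could carry it too. No 4-OHT-free or Cre+ unfloxed cultures were among the 6, so the deletion and Cre activity itself cannot be told apart. Whether each culture came from separate pups or litters is not stated in the labels, and the p-values then measure the spread between these samples only.

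Immediate-early genes are transcribed within minutes of a stimulus without new protein synthesis, through kinase cascades that act on serum response factor with its ETS partners and on CREB. Their messages are short-lived, and much of this is due to AU-rich sequences in the 3′ untranslated region. FOS and JUN proteins pair into the AP-1 transcription factor, EGR proteins are zinc finger transcription factors, DUSP1 is a phosphatase that switches off p38, JNK and ERK, and ZFP36 (tristetraprolin) binds AU-rich messages and recruits the machinery that removes their poly(A) tail. In microglia these genes are known to be induced when cells are dissociated or handled, which is why the spread between cultures of a group was examined along with the difference between groups.

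The promoters that carry a CArG box or the TATAAA hexamer, with 1 of the 5 Egr2 windows, are printed here. Each runs from 250 bases before the start site to 20 bases after it, as given by RefSeq for GRCm38.p6. Capitals mark the CArG box, the serum response factor sequence, in Egr2 and Zfp36, and the TATAAA hexamer (letters of the TATA box) in Fos and Junb. Fos lies on the plus strand, window chr12:85473640-85473909, Junb on the minus strand, window chr8:84978729-84978998, Egr2 on the plus strand, window chr10:67537619-67537888, and Zfp36 on the minus strand, window chr7:28379209-28379478.
Fos: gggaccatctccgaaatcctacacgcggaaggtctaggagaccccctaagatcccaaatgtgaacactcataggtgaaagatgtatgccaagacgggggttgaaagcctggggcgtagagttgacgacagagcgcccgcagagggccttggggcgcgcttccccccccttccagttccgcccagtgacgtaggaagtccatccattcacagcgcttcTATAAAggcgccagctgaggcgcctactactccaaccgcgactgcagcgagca
Junb: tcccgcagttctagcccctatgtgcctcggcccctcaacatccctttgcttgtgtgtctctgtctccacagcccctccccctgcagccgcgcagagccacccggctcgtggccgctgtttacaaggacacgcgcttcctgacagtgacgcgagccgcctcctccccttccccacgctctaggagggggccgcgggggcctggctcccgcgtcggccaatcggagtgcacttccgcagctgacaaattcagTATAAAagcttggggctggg
Egr2: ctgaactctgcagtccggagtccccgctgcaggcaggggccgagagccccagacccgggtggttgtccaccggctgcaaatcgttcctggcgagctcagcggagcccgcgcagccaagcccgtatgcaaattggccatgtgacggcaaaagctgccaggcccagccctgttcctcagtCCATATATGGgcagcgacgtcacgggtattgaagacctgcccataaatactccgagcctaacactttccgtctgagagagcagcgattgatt
Zfp36: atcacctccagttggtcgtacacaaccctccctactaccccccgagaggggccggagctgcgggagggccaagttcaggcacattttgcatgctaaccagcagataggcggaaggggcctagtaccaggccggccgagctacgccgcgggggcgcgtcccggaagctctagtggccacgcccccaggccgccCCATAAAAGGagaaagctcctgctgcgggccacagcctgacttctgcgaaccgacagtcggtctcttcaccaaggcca
The search covered windows of 300 bases, 250 before and 50 after each RefSeq start, on both strands. RefSeq entries were held for 8 members in 12 windows, and those of Ier2 and Egr1 were not analysed here. A CArG box was found in Egr2, in 4 of its 5 windows, and in Zfp36, and the first base of the box lay at -72 in the Egr2 window shown and at -58 in Zfp36. Some Egr2 windows overlap and hold the same box, so the 4 are not separate occurrences. The Egr2 window nearest the start of the counted gene has none. A CArG box occurs in 1.63% of all 32851 windows and in 1.19% of the 10726 windows of genes tested. The TATAAA hexamer was found in Fos at -33 and in Junb at +1, against 13.6% of all windows and 7.02% of those of genes tested. In the annotation used for counting, Junb starts at 84978718, downstream of this hexamer, so the 2 annotations differ in the start. They differ more for other members. Jund starts there at 70698949, downstream of its whole window (chr8:70697489-70697758). Zfp36 starts there at 28380253 and Dusp1 at 26562128, so their windows lie inside the counted genes. The full cAMP response element TGACGTCA was found in Dusp1 at -143, against 1.79% and 3.15% of these windows. The EGR motif GCGNGGGCG, with N for any base, was found in Fosb and Zfp36, against 5.55% and 10.4%. Neither the AP-1 motif TGANTCA, present in 7.81% and 5.04%, nor the AGGTCA half-site that REV-ERBα can bind, present in 16.3% and 12.4%, occurred in a window of a member. These matches describe letters and not binding.

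The members share a compact gene structure that the choice by symbol did not use. Jun, Junb, Jund and Ier2 have a single exon, as 2.19% of the 10172 protein-coding genes tested do, and all 10 have fewer exons than the median of 9. The span from start to end is below the median of 24296 bases in 9 members, from 1524 bases for Ier2 to 7356 bases for Fosb, and Dusp1, annotated over 56539 bases, is the exception. The RefSeq window of Dusp1, chr17:26508453-26508722, lies inside this span, so the exception depends on the annotation. AUUUA pentamers, the core of AU-rich elements, number 4 in the 3′ untranslated regions of Fos, Jun and Dusp1, 3 in Egr2 and Zfp36, 2 in Junb and Egr1, 1 in Fosb and Jund, and 0 in Ier2. At least 3 were present in 5 of 10 members, against 38.8% of the protein-coding genes tested. Per kilobase of the 3′ untranslated region, 8 of 10 members lay above the median of these genes, 1.33.

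Library totals ran from 87545868 to 93942161 counts in Cre- and from 93701215 to 110909129 in Cre+ cultures. Of 11 microglial markers, 10 exceeded 1 CPM in all 6 libraries, with Cd68 at a mean of 3926 CPM, while P2ry12, a marker of resting microglia, was at 0.656 CPM. Above 1 CPM in all libraries were 0 of 6 neuronal, 0 of 5 fibroblast, 1 of 6 astrocyte, 2 of 6 oligodendrocyte and 1 of 5 endothelial markers. The groups did not overlap in the summed markers of fibroblasts (1.04 to 1.99 CPM in Cre-, 0.384 to 0.487 in Cre+), neurons (2.87 to 3.51 against 2.35 to 2.45) and endothelial cells (20.2 to 22.5 against 24.0 to 27.5). Most of the endothelial sum was Flt1, at a mean of 22.3 CPM, while Cldn5 was at 0.0109 CPM. The sum therefore reports mainly 1 gene. The groups did not overlap either in the rRNA share of counts, 1.22% to 1.27% against 0.791% to 1.12%, or in the number of genes with a count, 32587 to 35166 against 29941 to 30677. The part of these in the results was not tested. Nr1d1 itself had means of 1.73 ± 0.577 (Cre-) and 1.01 ± 0.0682 CPM (Cre+, SD, n = 3 each), a difference that did not pass the threshold (log2 fold change -0.77, adjusted p = 0.0945 in edgeR). It was -0.98 without Cre- replicate 2, where alone among the alternatives it passed (adjusted p = 0.0414), and -0.50 without Cre- replicate 1 (adjusted p = 0.313 in edgeR). The floxed design removes only some exons of Nr1d1, while the counts cover all its exons, so this total does not measure the deletion itself. The paper reports loss of the floxed exons and of most Nr1d1 transcript in microglia of a different Cre line.

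Junb and Ier2 were lower in Cre+ than in Cre- microglia, by 32.3% and 22.8% of the Cre- mean, and the other 6 members tested did not pass the threshold. These are 2 members of 8 called at an adjusted p of 0.05, both lower, where 5.07% of all 11429 genes tested were called, 2.56% lower and 2.5% higher. The set was chosen with earlier results of these data known, so these shares are a description only. The members were not all low together: the log2 fold change was below 0 in 5 and above 0 in 3, with a median of -0.11 against 0.00 for all genes tested. In bulk RNA, fewer cells of a kind that expresses a gene and less RNA of it per cell cannot be told apart. All values in CPM below use TMM-normalized library sizes, apart from those of genes below the filter, which use library totals.

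**Figure D1:**
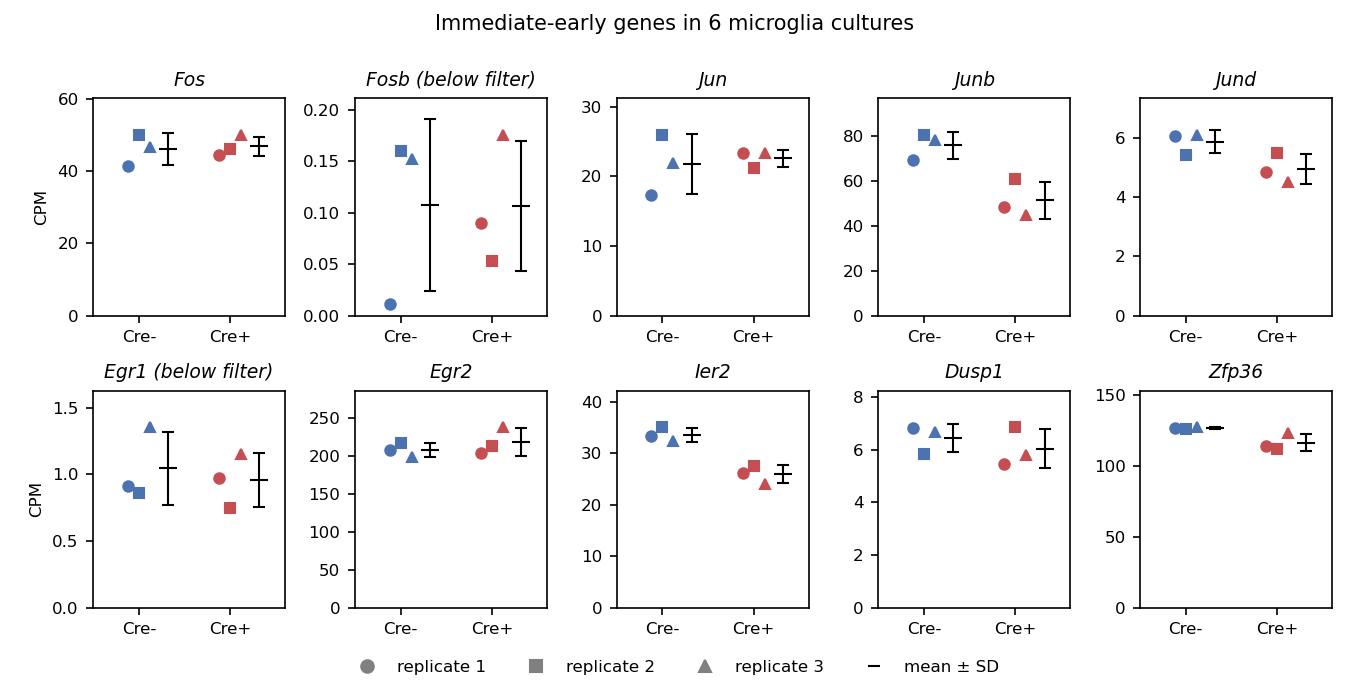
CPM of the 10 immediate-early genes (vertical axes from 0, a scale for each gene) in 3 Cre- and 3 Cre+ cultures, with symbols for the replicate number and a black mark with bar for the mean ± SD (n = 3). Cre+ cultures lie below all Cre- cultures for Junb, Ier2 and, by a small margin, Zfp36, and the groups overlap for the other 7 genes.

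Among the AP-1 genes, Junb (ENSMUSG00000052837, chr8:84976910-84978718 of GRCm38, minus strand), which codes for the JUN family protein often found to temper the activity of JUN, was at 69.1, 80.6 and 78.0 CPM in Cre- replicates 1 to 3 and at 48.5, 60.6 and 45.0 CPM in Cre+ replicates 1 to 3. The highest Cre+ culture remained below the lowest Cre- culture. The means were 75.9 ± 6.003 and 51.4 ± 8.18 CPM (SD, n = 3 each), with a log2 fold change of -0.56 (SE 0.09, adjusted p = 0.00164 by edgeR's quasi-likelihood test). Leaving out each library in turn gave -0.70 to -0.48. Junb shares no exon bases with another gene of the annotation used for counting.

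Jun (ENSMUSG00000052684, chr4:95049034-95052222, minus strand), the central AP-1 subunit, was at 17.3, 26.0 and 21.9 CPM in Cre- and at 23.3, 21.2 and 23.3 CPM in Cre+. The Cre+ cultures fell inside the range of the Cre- cultures, and the log2 fold change was 0.06 with a 95% interval of -0.17 to 0.28. Without Cre- replicate 1, the lowest of the 6, it turned to -0.09. The antisense gene Junos overlaps 232 bases of Jun and was at 0.587 to 0.982 CPM, and the library kit did not mark strand.

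Jund (ENSMUSG00000071076, chr8:70698949-70700616, plus strand), the JUN family member known for steadier expression, was at 6.07, 5.42 and 6.12 CPM in Cre- and at 4.85, 5.50 and 4.50 CPM in Cre+. Cre+ replicate 2 exceeded Cre- replicate 2, so the groups overlapped, and the log2 fold change of -0.25 (interval -0.51 to 0.02) gave an adjusted p of 0.352 in edgeR's test. The antisense gene Gm11175 spans 877 of the 1668 bases of Jund and had 0 counts in every library, so reads of this stretch are uncertain without strand.

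Fos (ENSMUSG00000021250, chr12:85473890-85477273, plus strand), the FOS protein that pairs with JUN, was at 41.5, 50.2 and 46.9 CPM in Cre- and at 44.7, 46.1 and 49.96 CPM in Cre+. The means of 46.2 ± 4.40 and 46.9 ± 2.74 CPM (SD, n = 3 each) differed by less than the spread in either group. The log2 fold change was 0.02 with an interval of -0.12 to 0.17. It was -0.06 without Cre- replicate 1 and -0.03 without Cre+ replicate 3. Fosb (ENSMUSG00000003545, chr7:19302696-19310051, minus strand) had 1, 15 and 14 counts in Cre- and 10, 5 and 18 counts in Cre+. The means were 0.108 and 0.106 CPM, and the groups overlapped (exact 2-sided permutation p = 1.0). With 3 against 3 the smallest p of this test is 0.1, so it could not have detected a difference.

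Of the EGR genes, Egr2 (ENSMUSG00000037868, chr10:67535475-67542188, plus strand) was the most abundant member in CPM, at 208, 217 and 199 CPM in Cre- and at 203, 212 and 238 CPM in Cre+. Cre+ replicate 3 was the highest of the 6 cultures and the other 2 Cre+ cultures lay within the Cre- range. The log2 fold change was 0.07 (interval -0.05 to 0.18, adjusted p = 0.583 by edgeR). It became -0.0012 without Cre+ replicate 3. Egr1 (ENSMUSG00000038418, chr18:34859823-34864984, plus strand), the family member usually used as a readout of acute stimulation, was far lower, at 0.914, 0.862 and 1.36 CPM in Cre- and at 0.974, 0.747 and 1.15 CPM in Cre+. These are 70 to 125 counts per library, and the groups overlapped (exact 2-sided permutation p = 0.7, where 0.1 is the smallest that 3 against 3 allows).

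Ier2 (ENSMUSG00000053560, chr8:84661331-84662854, minus strand), a short nuclear protein of the early response, was at 33.3, 35.1 and 32.3 CPM in Cre- and at 26.2, 27.5 and 24.0 CPM in Cre+. The groups were separated by more than the range of either of them. The means were 33.6 ± 1.41 and 25.9 ± 1.74 CPM (SD, n = 3 each), with a log2 fold change of -0.37 (SE 0.07, adjusted p = 0.0072 by edgeR's quasi-likelihood test). With 1 library left out in turn the value ran from -0.42 to -0.32, and the highest adjusted p in edgeR was 0.0448.

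Of the genes that restrain the response, Zfp36 (ENSMUSG00000044786, chr7:28376784-28380253, minus strand) was at 126, 126 and 128 CPM in Cre- and at 114, 112 and 123 CPM in Cre+. All Cre+ cultures lay below all Cre- cultures, but the log2 fold change of -0.12 (SE 0.05) did not pass after adjustment (adjusted p = 0.196 by edgeR). Non-overlap was seen in 3 of the 8 members tested, all lower in Cre+, against 24.0% of all genes tested and 11.7% for lower in Cre+. This too describes a set chosen with earlier results known. Counts of Zfp36 are uncertain in part, because stretches of 100 to 141 bases of its longest transcript are at least 95% identical to 18 other genes, and 125 bases overlap the antisense gene Gm44710 at 0.00977 to 0.213 CPM. Dusp1 (ENSMUSG00000024190, chr17:26505590-26562128, minus strand) was at 6.82, 5.82 and 6.65 CPM in Cre- and at 5.47, 6.86 and 5.79 CPM in Cre+. The highest of the 6 cultures was a Cre+ culture, and the log2 fold change was -0.09 with an interval of -0.36 to 0.17. It shares 11 bases with Ergic1 on the other strand, which was at 88.1 to 109 CPM.

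**Figure D2:**
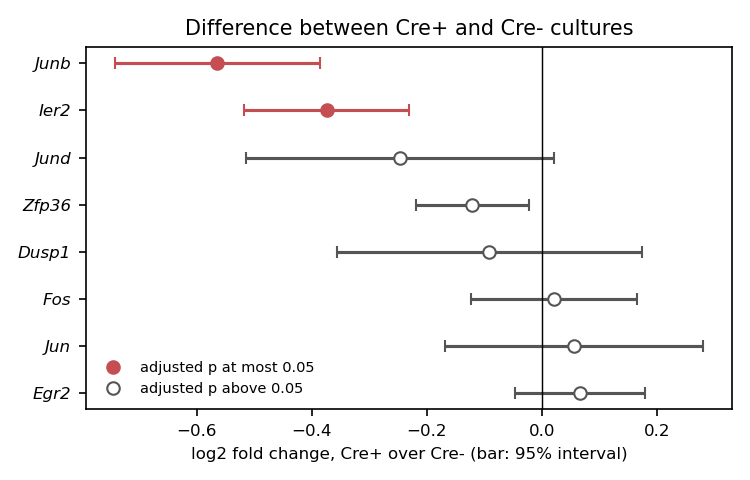
Log2 fold change of Cre+ over Cre- cultures (horizontal axis) for the 8 members tested, with bars for the 95% interval and filled points for an adjusted p of at most 0.05 in edgeR. Junb at -0.56 and Ier2 at -0.37 are filled and lie left of 0, and the other 6 members lie between -0.25 and 0.07.

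Per length, in CPM per kilobase as the mean of all 6 libraries, Egr2 led at 62.7. It was followed by Junb at 35.2 and Zfp36 at 35.0, whose ranges over libraries overlapped, and by Fos at 19.8 and Ier2 at 19.5, which also overlapped. Jun at 6.95, Jund at 3.24, Dusp1 at 1.88, Egr1 at 0.223 and Fosb at 0.0171 came next without overlap between neighbours. By this level Egr2 stood at percentile 93.8 of the genes tested and Dusp1 at percentile 35.5. Egr1, the relative of Egr2, was thus near the other end of the order. The place of Jund is uncertain, because Gm11175 covers 877 of its 1668 bases and reads there are uncertain without strand.

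Within a genotype, the coefficient of variation (SD over mean of 3 cultures) of the 8 members had a median of 7.25% in Cre- and 7.47% in Cre+, against 7.43% and 7.04% over all genes tested, and 4 of 8 members lay above the median of all genes in each group. Over the 8446 genes above 5 CPM on average, as all 8 members were, the medians were lower, 5.997% in Cre- and 5.80% in Cre+. Above these lay Fos, Jun, Junb, Jund and Dusp1 in Cre-, and Fos, Junb, Jund, Egr2, Ier2 and Dusp1 in Cre+. Jun in Cre- had the widest spread, 19.9%, with its highest culture at 1.50 times the lowest, and this lay at percentile 90.0 of all genes. Junb in Cre+ followed at 15.9%, percentile 85.6. Zfp36 in Cre- had the narrowest, 0.644%, percentile 0.91. Counting error alone would give 0.674% to 4.48% for these members. The observed value was larger in 7 of 8 members in Cre- and in 8 of 8 in Cre+, the exception being Zfp36 in Cre- with a counting error of 0.939%.

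**Figure D3:**
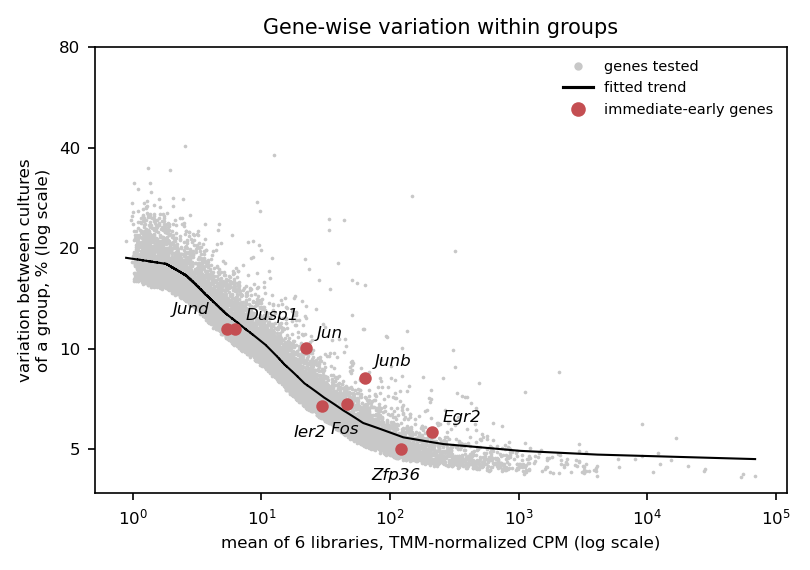
Variation between cultures of a group, as the biological coefficient of variation estimated by edgeR (vertical axis, percent, log scale), against mean CPM over the 6 libraries (horizontal axis, log scale) for all genes tested, with the fitted trend and the 8 members in red. The members lie between 5.02% and 11.5%, 4 above the trend and 4 below it. These are estimates that edgeR draws toward the trend, not the raw variation of the cultures.

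Set against genes of like abundance through edgeR's trend, the biological coefficient of variation was above the trend for 4 of 8 members, where 33.3% of all genes were. Junb was at 8.14% with the trend at 5.96%, and Jun was at 10.0% with the trend at 7.81%. Fos at 6.81% and Egr2 at 5.63% were close to the trend values of 6.42% and 5.24%. edgeR draws the estimate of each gene toward this trend, so closeness to it is in part built in. Jund, Ier2, Dusp1 and Zfp36 lay below it. This is a description of the members, and no test was made over them.

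The members also did not rise and fall as a block from culture to culture. The deviation of a culture from its group mean, averaged over the 8 members on the log2 scale, was -0.06, 0.05 and 0.01 in Cre- replicates 1 to 3 and -0.04, 0.06 and -0.01 in Cre+ replicates 1 to 3. Single members moved more, from -0.30 for Jun in Cre- replicate 1 to 0.27 for Jun in Cre- replicate 2. Cre- replicate 2 was the highest of its group for 5 members and the lowest for the other 3. In Cre+ replicate 2, Junb was 0.25 above and Dusp1 0.18 above the group mean, while Jun was 0.09 and Zfp36 0.06 below it. The inducible heat shock genes Bag3, Dnajb1 and Hsph1, further genes that respond to handling, averaged between -0.07 and 0.07 from their group mean in the 6 cultures.

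**Figure D4:**
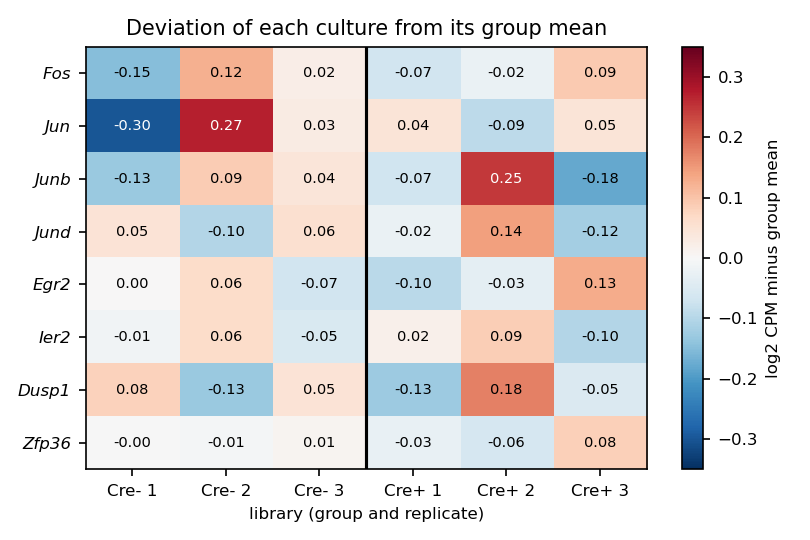
Log2 CPM of each of the 8 members tested (rows) in each culture (columns, 3 Cre- then 3 Cre+) minus the mean of its group, as colour and printed value. The largest deviations are Jun at -0.30 and 0.27 in Cre- replicates 1 and 2 and Junb at 0.25 in Cre+ replicate 2, and no culture is high or low for all members.

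Averaged over the 8 members after centring each gene on its mean of 6 libraries, the level was 0.02, 0.12 and 0.09 in Cre- and -0.12, -0.02 and -0.09 in Cre+ on the log2 scale. Without Junb and Ier2 it was -0.03, 0.06 and 0.04 in Cre- and -0.07, -0.00 and 0.01 in Cre+, and the groups then overlapped. Junb and Ier2 were left out because they were called lower in these same data, so a smaller difference was fixed in advance. The genes whose log2 CPM followed the members' average most closely, among 8438 other genes of at least 5 CPM, were Naif1 (Pearson's r 0.996), Tmem51 (0.988), Bag2 (0.987), Scap (0.985) and Igsf8 (0.983). These are correlations over 6 libraries that share the 2 groups, picked as the highest, and are given as a description. The average they were picked to follow was itself lower in Cre+. A fall in these genes therefore follows from the choice, and their adjusted p below is a description too. Igsf8, an immunoglobulin superfamily membrane protein, fell from 47.3 ± 3.24 to 32.6 ± 3.04 CPM (SD, n = 3 each, adjusted p = 0.000662 by edgeR), and Tmem51 fell from 16.5 to 12.1 CPM (adjusted p = 0.0178). The call of Tmem51 was lost when Cre- replicate 2 or 3 or Cre+ replicate 1 or 3 was left out, at adjusted p of 0.0757, 0.072, 0.0732 and 0.0652 in edgeR. Naif1, Bag2 and Scap had log2 fold changes of -0.19, -0.26 and -0.25 and did not pass.

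Of 39 other rapidly induced genes, 27 were tested, 2 were higher, 2 were lower and 23 did not pass. The log2 fold change was above 0 in 8 and below 0 in 19, with a median of -0.06. Of all 11429 genes tested, 579 (5.07%) were called, 5781 lay above 0 and 5648 below 0. These shares stand beside each related list below, and the counts in the lists are a description only. With TMM factors from all genes before the filter, 3 were higher and 1 was lower. Klf10, a zinc finger factor induced by TGF-β, rose from 104 ± 4.16 to 125 ± 3.08 CPM, and Mafk, a small MAF protein that pairs with NRF2, fell from 28.1 ± 1.25 to 21.4 ± 1.34 CPM (SD, n = 3 each). Their log2 fold changes were 0.26 and -0.39, with adjusted p of 0.0056 and 0.00681 in edgeR. Myc changed by 0.31 on that scale (adjusted p = 0.0309) and Nfkbia, the inhibitor IκBα of NF-κB, changed by -0.20 (adjusted p = 0.0297). The call of Myc was lost without Cre- replicate 1 or 2 or Cre+ replicate 2 or 3 (adjusted p of 0.0685, 0.113, 0.0982 and 0.111), and that of Nfkbia without Cre- replicate 2 or 3 or Cre+ replicate 2 or 3 (0.114, 0.082, 0.0878 and 0.105). The most abundant genes of the list were Sgk1 at 1049 and 971 CPM, Atf3 at 625 and 608 CPM, and Klf6 at 155 and 168 CPM in Cre- and Cre+, none of which passed.

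**Figure D5:**
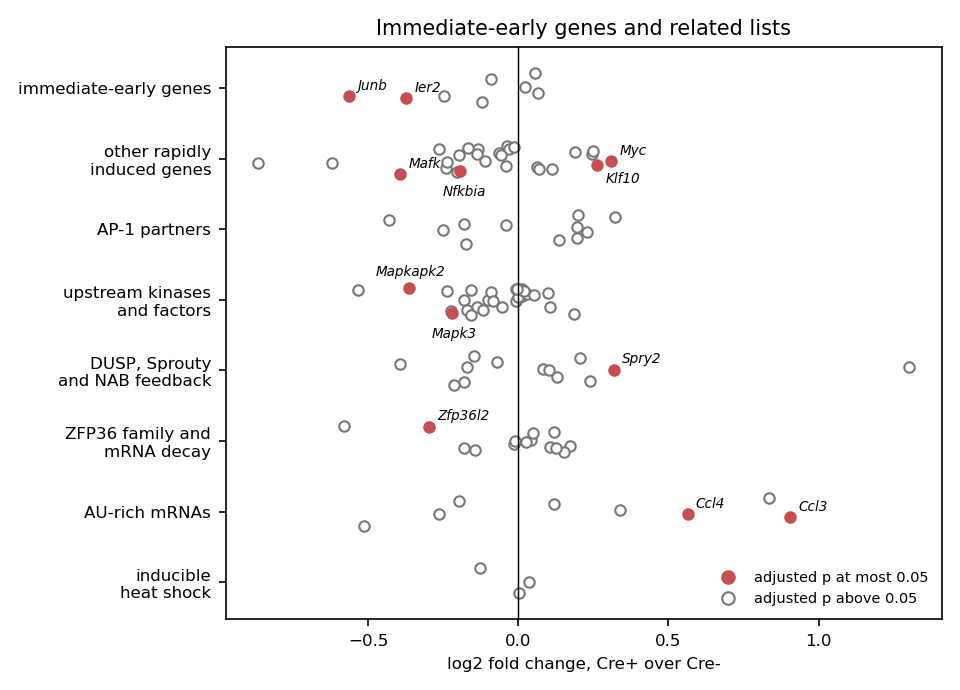
Log2 fold change of Cre+ over Cre- (horizontal axis) for every gene tested in the immediate-early set and in the 7 related lists (rows, with points spread vertically for legibility), filled and named where the adjusted p in edgeR was at most 0.05. Points lie on both sides of 0 in every list, and the far right point among the feedback genes is Dusp8, which did not pass.

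The dimer partners of AP-1 gave 0 calls among 11 genes tested of 14 in edgeR, 4 at an unadjusted p under 0.05, 0 by limma voom with or without quality weights and 1 by DESeq2. At an unadjusted p under 0.05 in edgeR were also 11 of 27 other rapidly induced and 5 of 28 upstream genes. The same held for 4 of 13 feedback, 2 of 14 ZFP36 family and 5 of 8 AU-rich genes. The share of all genes tested at this threshold was not counted, so these numbers have no baseline. The median log2 fold change of the AP-1 partners was 0.14, and Atf4, Mafg and Atf2, the most abundant, were at -0.04, -0.18 and 0.19. All 28 upstream kinases and transcription factors were tested, and 2 were lower and 26 did not pass (median -0.07). Mapk3, which codes for ERK1, fell from 230 ± 14.3 to 197 ± 6.35 CPM (adjusted p = 0.0212) and Mapkapk2, the kinase MK2 that phosphorylates ZFP36, fell from 33.9 ± 3.21 to 26.4 ± 1.49 CPM (SD, n = 3 each, adjusted p = 0.0144 by edgeR). Mrtfb and Map2k3, the next most abundant, were at 0.11 and -0.16 and did not pass. The call of Mapk3 was lost without Cre- replicate 2 or 3 or Cre+ replicate 1 or 3 (adjusted p of 0.0857, 0.0966, 0.0608 and 0.0914), and that of Mapkapk2 without Cre- replicate 3 or Cre+ replicate 2 or 3 (0.0739, 0.0578 and 0.0759).

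Among the feedback genes, the dual-specificity phosphatases related to Dusp1, the Sprouty and SPRED inhibitors and the EGR corepressors NAB1 and NAB2, 13 of 16 were tested, 1 was higher and 12 did not pass (median 0.08). Spry2, an inhibitor of receptor signalling to ERK, rose from 18.4 ± 1.65 to 23.0 ± 0.678 CPM (SD, n = 3 each, adjusted p = 0.0394 by edgeR). Its call was lost without any 1 library other than Cre- replicate 3, at adjusted p of 0.0745 to 0.142. Dusp3 was at 620 and 678 CPM and Dusp6 at 74.6 and 80.02 CPM, neither of which passed. Dusp8, named after its values were seen, was at 7.89 CPM in Cre+ replicate 1 and at 0.999 to 1.87 CPM in the other 5 cultures.

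For the list of the ZFP36 family and genes related to mRNA decay, all 14 genes were tested, 1 was lower and 13 did not pass (median 0.04). Zfp36l2, a relative of Zfp36, fell from 21.1 ± 0.407 to 17.2 ± 1.12 CPM (SD, n = 3 each, adjusted p = 0.048 by edgeR), a call that was lost in each fit without 1 library, at adjusted p of 0.0729 to 0.178. The abundant Ywhab, Cnot8 and Cnot1 were at log2 fold changes of -0.01, 0.03 and 0.04. Of 14 messages with AU-rich elements, 8 were tested, 2 were higher and 6 did not pass (median 0.23), where 2.5% of all genes tested were called higher. The log2 fold change was above 0 in 5 and below 0 in 3 of them. Ccl3 rose from 21.0 ± 2.73 to 39.5 ± 1.80 CPM (SD, n = 3 each, log2 fold change 0.91, adjusted p = 1.37e-05 by edgeR) and was called in each of the 16 alternatives. Ccl4, its neighbour among the chemokines, rose by 0.56 on the log2 scale (adjusted p = 0.0274) and lost its call without Cre- replicate 1 or 3 or Cre+ replicate 1 or 2 (0.0771, 0.0759, 0.066 and 0.121). Il1a was at 18.5 ± 0.637 and 23.3 ± 6.27 CPM and did not pass. Il1b, named after its values were seen, went the other way at a log2 fold change of -0.52 and did not pass (adjusted p = 0.158 by edgeR). Of 6 inducible heat shock genes, 3 were tested with 0 called and 0 at an unadjusted p under 0.05 in edgeR and 0 called by limma voom or DESeq2, and Bag3, Dnajb1 and Hsph1 were at 0.04, -0.13 and 0.00.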

How the data were processed

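The authors aligned paired-end reads with STAR 2.7.9a to GRCm38 with featureCounts 2.0.3 giving the counts per Ensembl gene, per the labels. The counts, as deposited, are whole numbers without normalization. The CPM deposited by the authors are counts over the library total, and the FPKM deposited by the authors are CPM per kilobase. Both were read only to check units, in 6 of 6 files. Symbols and biotypes came from GENCODE M21, which held 55227 of the identifiers.

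After removal of 356 rRNA genes, those exceeding 1 CPM in 4 or more libraries entered the quasi-likelihood test of edgeR 4.0.16 (R 4.3.3) following TMM normalization, without covariates, with Benjamini-Hochberg adjustment over 11429 genes at 0.05. Intervals of 95% are normal approximations from the standard error. The common biological coefficient of variation was 10.0%. The pipeline was tested on simulated data. Centred values used a pseudocount of 0.5 CPM. Stretches of sequence were compared with blastn 2.17.0, on 95% identity over at least 100 bases. Alternatives used limma 3.58.1 and DESeq2 1.42.0, and plots were drawn with matplotlib 3.10.9 (python 3.11.15, numpy 2.4.6, pandas 2.3.3).

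The members and lists were chosen with earlier results of these data known. Named genes were Nr1d1, the members, every called gene and the 3 most abundant of each related list, and the 5 genes most alike the members' average. Dusp8, Il1b, the overlapping genes and the markers fall outside this rule. For no pair of libraries did counts agree within sampling noise.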

Additional observations from a re-analysis of the deposited data

How the results depend on the processing

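Junb and Ier2 were the 2 members called in each of 16 alternatives, with Junb at -0.70 to -0.48 and Ier2 at -0.42 to -0.30. Of 128 fits of single tested members, 124 kept direction and side of the threshold. The direction turned for Fos without Cre- replicate 1 or Cre+ replicate 3, for Jun without Cre- replicate 1 and for Egr2 without Cre+ replicate 3. The log2 ratio of means of Egr1 and Fosb, below the filter, turned as well, at -0.28 to 0.11 and -0.58 to 0.38 without 1 library, and to 0.035 for Fosb under TMM before the filter. Over the fits without 1 library Fos ranged from -0.058 to 0.086, Jun from -0.091 to 0.20 and Egr2 from -0.0012 to 0.11, none of them called. The median variation of the members stayed at 6.15% to 7.25% in Cre- and 7.47% to 7.65% in Cre+ over scalings.

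TMM factors from all genes before the filter, added after seeing the data and the order in the study's methods, moved the median log2 fold change of all genes to 0.08 and gave 1012 calls, 81.9% of them higher, where the reported fit gave 579 with 49.4% higher. DESeq2 gave 886, no filter on low counts 1528, and leaving out 1 library 317 to 448. The cause of these differences was not tested. Nfkbia, Mapk3 and Zfp36l2 lost their calls under TMM before the filter, filterByExpr and no filter. Dusp3 gained a call under the same alternatives (adjusted p of 0.0238, 0.0463 and 0.0124 in edgeR), Klf6 under TMM before the filter (0.0405) and Atf2 and Il1a under no filter (0.0442 and 0.000682).

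In the related lists, that scaling gave 1 call among upstream genes, 2 among feedback genes, 0 in the ZFP36 family and 3 among AU-rich genes. DESeq2 gave 1 among AP-1 partners, 2 in the ZFP36 family and 3 among AU-rich genes. No filter gave 1, 1, 3, 0 and 4 among AP-1 partners, upstream, feedback, ZFP36 family and AU-rich genes, filterByExpr 1, 2 and 0 among upstream, feedback and ZFP36 family genes, and library totals 0 in the ZFP36 family. Without 1 library the counts were 2 to 4 for other rapidly induced, 0 to 2 for upstream, 0 to 1 for feedback, 0 to 1 for ZFP36 family and 1 to 2 for AU-rich genes. Directions of uncalled genes turned for Atf3 (0.040 with TMM before the filter and with no filter, 0.0046 with filterByExpr), Atf4 (0.039 and 0.0036 likewise), Ywhab (0.067 and 0.032 likewise, and -0.052 to 0.023 without 1 library), Bag3 (-0.027 to 0.098 without 1 library) and Hsph1 (-0.0033 with DESeq2's size factors, -0.0017 with limma's quality weights, -0.0034 with DESeq2, and -0.050 to 0.029 without 1 library).

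The replicate numbers share no stated batch, and the deviations of same-numbered libraries correlated at only -0.0556 to 0.00667. With the replicate number as a block, 430 genes were called, among them 2 members, 2 other rapidly induced, 0 feedback and 0 ZFP36 family genes, and Junb was at -0.57. Depth limits Egr1 and Fosb most, and counting error was 4.06% to 4.48% in Jund and Dusp1, against variation of 6.60% to 12.1%.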
